A study of Mus musculus with 3 samples.

Results

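Open chromatin of the PDGFB-NLS library was set against that of the Control library over the regions that were called as peaks in both. Peaks of the 2 lists that overlapped were merged, and a region was kept where it held a peak of each, whether or not it was also called in the third library of the series, PDGFB-WT. This gave 91841 shared regions, against 147229 merged regions of all 3 libraries. The shared regions were 64.8% of the 141692 regions merged over the 2 lists, with 34577 more called in PDGFB-NLS and not in Control, and 15274 more called in Control and not in PDGFB-NLS. Regions with at least 100 fragments summed over both libraries were compared, which kept 60926 (66.3%) of the shared regions and over 93% of the counts of each library in them (93.2% in PDGFB-NLS and 93.6% in Control). The other 30915 were too thin to give a ratio.

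The mouse libraries come from a series on tumors made by piggyBac in utero electroporation, in which transposon plasmids are brought into cells of the embryonic brain, so that only the cells that took up the plasmid and their progeny carry it. PDGFB-NLS is an overexpression of a form of the growth factor PDGFB, and the meaning of NLS is not spelled out in the labels. Control is named as such with no further genotype, and both libraries carry the tissue label glioma, so whether Control is a tumor cannot be read from the labels. Age, strain, promoter and further alleles were not stated in the labels, and no label of either library names an IDH allele, although the series title does. There was 1 library a side, so no difference below has a replicate check, no test was made, and the intervals of ratios reflect the counting of fragments alone. The intervals of barcode shares reflect the counting of barcodes within 1 library, which are not replicates of the condition.

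Transposase-accessible chromatin marks DNA that is free of nucleosomes, such as promoters, which lie at gene starts and are open in most cell types, and enhancers, which lie between and inside genes and are mostly open in few cell types. A bulk sum over a mixed tissue therefore reflects both how open an element is in each cell type and how many cells of that type were sampled, and the sum alone cannot tell these apart. PDGFB is a ligand of the receptor tyrosine kinases PDGFRA and PDGFRB. In the brain PDGFRA marks oligodendrocyte precursor cells (OPC), the dividing glia that give rise to myelinating oligodendrocytes, and PDGF drives their proliferation.

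The summed depth of the libraries was alike, at 31177621 counts for PDGFB-NLS and 31588784 for Control, of which 93.4% and 97.0% lay in shared regions. The depth per barcode was not, with 10996 barcodes at a median of 2767.5 counts in PDGFB-NLS and 2226 barcodes at a median of 13054 counts in Control. The libraries shared 45 barcode sequences. Clustering each library alone gave 6 classes named by marker loci in both libraries. The 5 with more barcodes are used here, namely microglia or macrophage-like, oligodendrocyte-like, astrocyte-like, OPC-like and endothelial-like barcodes. OPC-like barcodes held 13.9% of PDGFB-NLS (95% exact binomial interval 13.3% to 14.6%, 1531 barcodes, cluster 4) and 2.56% of Control (1.95% to 3.31%, 57 barcodes, cluster 8), and gave 15.3% and 2.39% of the counts in shared regions. Endothelial-like barcodes held 10.6% (10.1% to 11.2%, cluster 5) and 22.96% (21.2% to 24.8%, clusters 3 and 7), and gave 7.65% and 10.4% of the counts. Control also had a mural or fibroblast-like cluster of 127 barcodes, and no cluster of PDGFB-NLS took that name. The endothelial-like classes of the libraries may therefore not hold the same cells. Oligodendrocyte-like barcodes held 19.2% (18.4% to 19.9%) and 16.2% (14.7% to 17.8%) of barcodes, but gave 20.3% and 25.6% of the counts. Microglia or macrophage-like ones likewise held 26.1% (25.3% to 27.0%) and 22.1% (20.4% to 23.8%) of barcodes and gave 33.1% and 35.5% of the counts, so for both classes the order of the libraries turns with the measure. Astrocyte-like ones held 26.1% and 21.3% of barcodes and gave 20.1% and 17.2% of the counts. The part of the unequal depth per barcode in these shares was not tested.

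Genes whose starts lay in regions with a higher level in PDGFB-NLS are shown first, by the upstream 250 bases of their RefSeq start (build GRCm38.p6, the assembly of mm10, read 5′ to 3′ on the gene's strand), because they let the ratios at gene ends be read beside the DNA they come from. Capitals mark matches, on either strand, to 6 motifs searched, which were ACAAAG (SOX factors), TGANTCA (AP-1), CAGCTG (an E-box of basic helix-loop-helix factors), CCGGAA (ETS factors), GAGGAAG (PU.1) and the palindrome of NFI factors.
Sox11: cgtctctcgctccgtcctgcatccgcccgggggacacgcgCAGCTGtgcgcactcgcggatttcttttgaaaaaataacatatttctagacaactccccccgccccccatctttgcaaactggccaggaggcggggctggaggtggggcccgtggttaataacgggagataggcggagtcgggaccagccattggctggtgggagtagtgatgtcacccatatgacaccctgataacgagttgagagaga
Galnt13: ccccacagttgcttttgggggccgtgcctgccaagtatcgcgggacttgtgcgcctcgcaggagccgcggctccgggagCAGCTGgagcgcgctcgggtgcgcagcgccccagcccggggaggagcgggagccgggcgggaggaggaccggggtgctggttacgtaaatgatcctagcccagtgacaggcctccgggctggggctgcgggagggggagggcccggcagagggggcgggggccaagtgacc
Ror2: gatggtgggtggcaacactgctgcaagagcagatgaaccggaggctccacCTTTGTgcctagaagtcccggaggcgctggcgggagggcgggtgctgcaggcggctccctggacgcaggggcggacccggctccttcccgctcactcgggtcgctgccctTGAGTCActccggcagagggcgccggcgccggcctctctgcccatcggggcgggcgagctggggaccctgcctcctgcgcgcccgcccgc
Ano3: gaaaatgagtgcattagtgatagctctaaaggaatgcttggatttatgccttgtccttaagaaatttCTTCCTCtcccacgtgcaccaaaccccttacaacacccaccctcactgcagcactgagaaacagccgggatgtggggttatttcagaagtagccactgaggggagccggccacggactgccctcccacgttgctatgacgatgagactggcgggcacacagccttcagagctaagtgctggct
Cntn1 outer start: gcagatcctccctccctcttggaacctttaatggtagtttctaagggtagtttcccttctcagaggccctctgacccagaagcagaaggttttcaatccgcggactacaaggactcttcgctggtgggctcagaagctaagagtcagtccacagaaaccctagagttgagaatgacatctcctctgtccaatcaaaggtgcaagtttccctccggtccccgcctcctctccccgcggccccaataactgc
Cntn1 inner start: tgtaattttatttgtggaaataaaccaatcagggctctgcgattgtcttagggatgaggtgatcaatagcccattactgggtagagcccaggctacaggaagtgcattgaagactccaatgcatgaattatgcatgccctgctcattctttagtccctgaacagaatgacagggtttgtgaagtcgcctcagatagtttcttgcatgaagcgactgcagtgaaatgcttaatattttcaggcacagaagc
The Sox11 window lies at chr12:27342719-27342968 on the minus strand, in a gene-end region with 21.4 counts per 1000000 in shared regions (CPM) in PDGFB-NLS and 5.97 in Control. It holds an E-box match, as does the Galnt13 window. The Galnt13 window (chr2:54436137-54436386, plus strand) lies in a region with 10.4 against 1.99 CPM, the Ror2 window (chr13:53286125-53286374, minus strand) in one with 8.79 against 3.43 CPM, and the Ano3 window (chr2:110950245-110950494, minus strand) in one with 8.59 against 1.24 CPM. Cntn1, a contactin of the axon and glial surface, is shown with 2 starts. The outer start (chr15:92050915-92051164, plus strand) lay in a gene-end region with 17.8 against 7.57 CPM, and the inner one (chr15:92161107-92161356, plus strand) in a region inside the gene with 11.03 against 3.40 CPM. Both regions were thus higher in PDGFB-NLS, although their windows differ in base composition, with 53.6% and 43.6% of bases G or C.

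Over all promoters of the RefSeq table whose window lay in a compared region (11357 of 21262), 11.6% held the E-box, 10.9% the SOX letters, 3.79% the AP-1 letters, 23.2% the ETS letters and 10.4% the PU.1 letters. Among the 207 in a region at least 2-fold higher in PDGFB-NLS these shares were 16.9%, 13.5%, 5.80%, 10.6% and 14.5%. The NFI palindrome was present in 3 windows of all compared and in 0 of the 207. The median number of CpG dinucleotides was 12 in the windows of the higher regions and 17 in all compared windows, at a median GC content of 62.0% and 61.6%. Only 25 windows lay in regions 2-fold or more lower. These shares describe letters in a window and are no evidence of a bound factor. A further 1330 gene-body regions held a RefSeq start of their own, of which 48 (3.61%) were 2-fold or more higher and 3 (0.226%) lower. Both shares were below those of all gene-body regions, 6.08% and 1.72%.

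Most shared regions had nearly the same level in both libraries, and the regions that did not were mostly away from gene ends and mostly higher in PDGFB-NLS. The median log2 ratio of CPM, PDGFB-NLS over Control, was 0.0067, with quartiles of -0.23 and 0.30 and a range of -3.04 to 3.44. Levels correlated across regions (Pearson r of log2 CPM 0.92 over 60926 regions, which share libraries and depth and are not independent). A region was counted as higher or lower where its CPM differed by 2-fold or more. That held for 3189 regions higher in PDGFB-NLS, a background of 5.23% of those compared, and for 907 lower, 1.49%. The exact 95% interval of the ratio, computed on fragments, lay wholly beyond 2-fold for 972 of the higher and 138 of the lower regions. The counts depend on depth, since asking for 50 fragments in each library left 1170 higher and 391 lower, and a minimum of 300 over both left 240 and 112.

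Gene ends, within 1000 bp of either end of a protein-coding gene, held 53.8% of the counts of PDGFB-NLS and 54.4% of those of Control in compared regions. Of 15350 gene-end regions, 381 (2.48%) were 2-fold or more higher and 71 (0.463%) lower. Of 26945 gene-body regions, 1638 (6.08%) were higher and 463 (1.72%) lower, and of 18631 distal regions, 1170 (6.28%) were higher and 373 (2%) lower. Among distal regions the share was larger farther from the nearest gene end, from 3.25% higher and 1.47% lower at 1 to 10 kb to 16.8% higher and 3.28% lower beyond 200 kb, where the median log2 ratio of 1128 regions was 0.20. The share higher also followed the level, at 9.47% in the lowest and 0.309% in the highest of 4 equal bins of mean CPM. The minimum of 100 fragments over both libraries helps set the first of these, because a region with under 34 fragments in 1 library could enter only by being about 2-fold or more apart. There were 955 such regions, 849 of them in the lowest bin, where they gave 662 of the 1443 higher and 183 of the 413 lower regions. Gene-end regions had a median of 22.9 CPM in PDGFB-NLS and distal regions 6.46 CPM, so position and level were not separated.

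**Figure D1:**
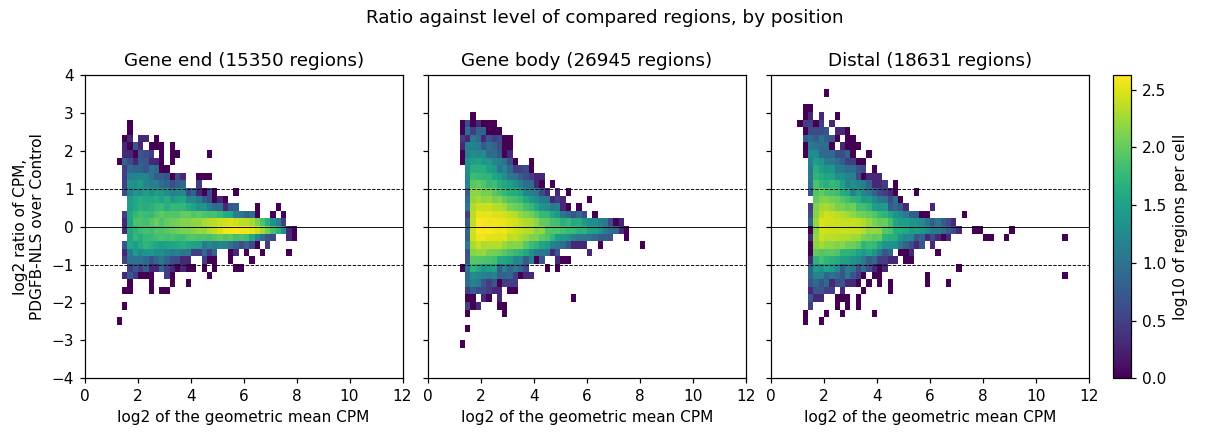
Each panel shows the compared regions of 1 position class, with log2 of the geometric mean CPM of both libraries on the horizontal axis and the log2 ratio of CPM, PDGFB-NLS over Control, on the vertical axis. Color gives log10 of the number of regions per cell, and dashed lines mark 2-fold. Most gene-end regions lie at higher levels and closer to 0, and in all 3 panels the spread narrows as the level rises.

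Many of the higher regions were also called in PDGFB-WT (70.9%, against 68.8% of all compared regions), while 29.0% of the lower regions were. The share called in PDGFB-WT varied with the level in the other libraries, from 36.9% in the lowest of those 4 bins to 98.5% in the highest. Higher and lower regions had similar overall levels, with a median of 7.18 and 2.68 CPM (PDGFB-NLS, Control) in the first and 2.95 and 6.92 CPM in the second.

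Of the 8 distal regions with the highest ratios, 5 lay over 200 kb from any gene end, and the others lay 99.7, 34.8 and 4.91 kb from one. The highest was at chr13:115687069-115687991, 585 kb from Itga1, which encodes a collagen-binding integrin chain, with 432 counts (14.8 CPM) in PDGFB-NLS and 42 (1.37 CPM) in Control, a log2 ratio of 3.44 (95% interval 2.73 to 4.07). The next was at chr12:47275631-47276586, 456 kb from Nova1, a neuronal splicing regulator, with 204 against 24 counts and a ratio of 3.16 (2.29 to 4.16). A region 1234 kb from Stim2, a calcium sensor of the endoplasmic reticulum, had 247 against 32 counts (3.02), and one 99.7 kb from the gasdermin gene Gsdmc had 487 against 66 counts (2.96). Regions near Slc37a1, 1810046K07Rik, Sall3 and Adamts9 followed, at 2.94, 2.88, 2.88 and 2.86. The Control counts of these 8 regions came from 12 to 25 barcodes each, and 1 barcode gave 23.8% of the Control counts of the Itga1 region, so their ratios are imprecise. In PDGFB-NLS the counts came from 95 to 237 barcodes, mainly OPC-like (86.8% at Nova1, 72.9% at Gsdmc) and oligodendrocyte-like (81.6% at 1810046K07Rik, 50.2% at Itga1). All but the one near 1810046K07Rik were also called in PDGFB-WT. Within oligodendrocyte-like barcodes the Itga1 region had 217 against 28 counts (3.36, interval 2.54 to 4.27), and within OPC-like barcodes 168 against 4 (2.79, 0.87 to 5.84). The Stim2 region differed in oligodendrocyte-like barcodes (144 against 8 counts, 4.58, interval 3.14 to 6.47), while in OPC-like ones it had 91 against 18 counts and an interval that spans 0 (-1.32 to 0.95).

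Among gene-body regions the highest ratios were in Arhgap35, a regulator of small GTPases (262 against 36 counts, 2.94, interval 2.01 to 3.39), Trabd2b, a membrane protease that acts on Wnt ligands (341 against 52, 2.79), and Adgrl3, the adhesion receptor latrophilin 3 (253 against 40, 2.73). They were followed by Ccdc32 (2.73), the guanine nucleotide exchange factor Trio (2.73), the glycine cleavage enzyme Gldc (2.72), talin 2 (Tln2, 2.72) and Ccdc57 (2.70). OPC-like barcodes gave 79.4% of the PDGFB-NLS counts in Arhgap35 and 75.1% in Adgrl3, and oligodendrocyte-like ones 71.5% in Gldc. Of gene ends, Ano3, an anoctamin of neurons, was highest (250 against 38 counts, 2.79, interval 2.11 to 3.59), then the potassium channel gene Kcnb2 (207 against 41, 2.41), the glycosyltransferase gene Galnt13 (303 against 61, 2.39) and Fbn1, which encodes fibrillin 1 of the extracellular matrix (312 against 64, 2.36). All 4 were called in PDGFB-WT as well. Within OPC-like barcodes the Ano3 end had 145 against 4 counts (2.58, interval 0.68 to 5.66), the Galnt13 end 177 against 31 (-0.09, -0.88 to 0.76) and the Fbn1 end 160 against 22 (0.26, -0.53 to 1.43). Within oligodendrocyte-like barcodes Galnt13 had 81 against 2 counts (5.75, interval 3.23 to 11.12), Fbn1 67 against 5 counts (4.15, interval 2.08 to 5.51) and Ano3 47 against 6 (3.38, 1.74 to 5.82). The Ano3 end thus had intervals above 0 in both classes, and the Galnt13 and Fbn1 ends in the second, all on few Control counts.

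Most regions with the lowest ratios drew their counts mainly from 1 class of barcodes, and most were not called in PDGFB-WT. In the body of Grm7, a metabotropic glutamate receptor gene, chr6:111140946-111142229 had 26 counts (0.893 CPM) in PDGFB-NLS and 225 (7.35 CPM) in Control, a log2 ratio of -3.04 (-3.91 to -2.19). Oligodendrocyte-like barcodes gave 88.5% and 99.1% of those counts. The same class gave over 91% of the Control counts of the lowest regions near Glul (glutamine synthetase, 44 against 276 counts, -2.58), Cnih3 (87 against 437, -2.26) and Jph1 (36 against 173, -2.19), and of those inside Dcdc5 (-2.13), Glt6d1 (-2.06) and Hecw2 (-2.06). Endothelial-like barcodes led at the distal regions near Mrpl15 (32 against 168 counts, -2.32) and Tnrc6c (58 against 300, -2.30) and at the end of the ephrin gene Efna3 (39 against 168, -2.03). Microglia or macrophage-like barcodes led inside Nedd4l (32 against 230, -2.77) and 1600014C10Rik (104 against 532, -2.28) and at the ends of the myeloid receptor gene Cd300ld (30 against 167, -2.40) and of Jph3 (43 against 156, -1.79). The distal region 18.2 kb from Letmd1 was lower in several classes, with 203 against 1059 counts (-2.31) in all and ratios of -2.29 (-2.80 to -1.76) in microglia or macrophage-like, -3.01 (-3.76 to -2.17) in oligodendrocyte-like, -1.46 (-2.05 to -0.66) in astrocyte-like and -2.61 (-3.84 to -1.66) in endothelial-like barcodes. In OPC-like barcodes it had 29 against 7 counts and an interval of -2.37 to 1.33. Of the 16 lowest distal and gene-body regions, those near Alkbh8 (-2.53) and in Ctnnd2 (-2.35) were the ones called in PDGFB-WT. The Alkbh8 region, at chr9:2999754-3000646, was also the one least covered by the 5 classes, which gave 18.6% of its Control counts. No list of artefact-prone regions was applied, so whether it is one was not tested.

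Distal regions were next given to the gene with the nearest end and gene-body regions to their gene, and summed over genes with at least 5 of them, a total of 3059 loci. Of these, 12 (0.392%) were 2-fold or more higher in PDGFB-NLS and 2 (0.0654%) lower, around a median log2 ratio of 0.02. The nearest gene need not be the one an element acts on.

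The locus with the highest ratio was Has2, the synthase of hyaluronan, the backbone of brain extracellular matrix. Its 5 distal and gene-body regions summed to 39.3 CPM in PDGFB-NLS and 11.2 in Control, a log2 ratio of 1.82 (interval 1.52 to 2.01). Each of the 5 was past 2-fold, from 1.30 to 2.70, the highest at chr15:56847362-56848303 with 351 against 57 counts. Its 2 gene-end regions were less far apart, at 9.62 against 6.43 CPM in sum (0.58, interval 0.20 to 0.96).

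Sox5, a SOX factor of neural and glial precursors, had 9 of 10 regions past 2-fold and 92.5 against 35.6 CPM (1.38, interval 1.23 to 1.52). The 9 lie inside the gene, from 469 to 936 kb from its 5′ end, with the highest level at chr6:144056390-144057409 (841 against 383 counts, 28.9 against 12.5 CPM) and the highest ratio near the 3′ end at chr6:143845418-143846325 (265 against 64 counts, 2.12). Its gene-end region had 12.5 against 6.43 CPM (0.96). Sox11, a related SOX factor of newborn neurons and progenitors, has 3 such regions, all distal and all past 2-fold (377 against 138, 167 against 41 and 209 against 35 counts), and summed to 25.9 against 6.99 CPM (1.89, interval 1.60 to 2.23). Its promoter region, whose sequence is given above, had 623 against 183 counts and nearly the same ratio (1.84), so here gene end and distal regions did not part.

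Ptprz1 encodes a receptor tyrosine phosphatase of OPC and astroglia that also exists as a secreted proteoglycan. It had 4 distal regions upstream, at -40.5, -41.5, -72.8 and -80.7 kb from the gene's 5′ end. The 3 nearest had 223 against 51, 393 against 95 and 187 against 40 counts (ratios of 2.20, 2.12 and 2.30), and the farthest had the highest level, 38.6 against 19.4 CPM (0.997). With its 1 gene-body region the locus reached 73.4 against 29.2 CPM (1.33, interval 1.15 to 1.46), while its gene end stood at 12.5 against 9.01 CPM (0.48). The upstream regions were thus further apart than the gene end.

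Tnr, the gene of tenascin-R, a matrix glycoprotein made by oligodendrocyte lineage cells, had 12 regions, all inside the gene, of which 7 were past 2-fold. They summed to 109.7 against 49.4 CPM (1.15, interval 1.03 to 1.28). The highest ratio was 140 kb into the gene, at chr1:159663300-159664188 (260 against 49 counts, 2.48), while the region with the highest level, 237 kb in, had 549 against 346 counts (0.74). Sema5b, a transmembrane semaphorin of axon guidance, had 7 of 12 regions past 2-fold and 88.7 against 44.4 CPM (0.998). Here the gene end also differed, with 48.1 against 23.5 CPM over 3 regions (1.03).

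**Figure D2:**
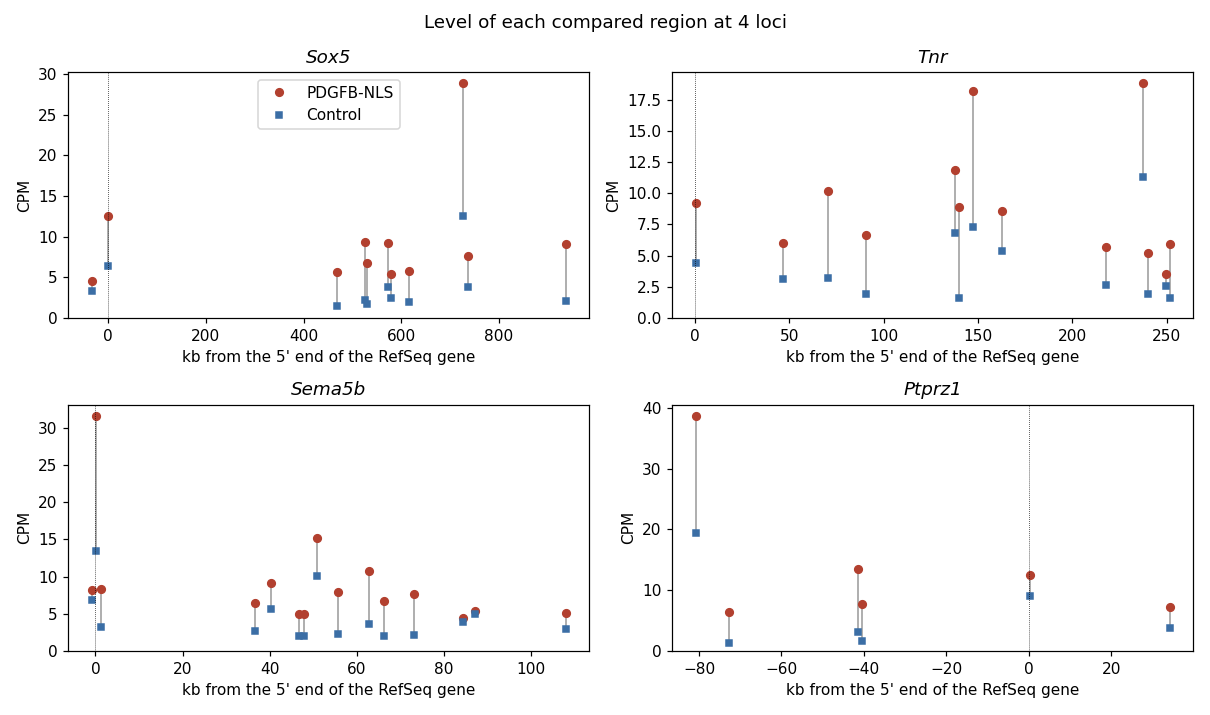
Each panel shows the compared regions of 1 locus, gene ends included, by distance in kb from the 5′ end of the RefSeq gene along its strand (horizontal) and CPM (vertical), with PDGFB-NLS as circles and Control as squares joined by a line. PDGFB-NLS is above Control in every region drawn at Sox5, Tnr, Sema5b and Ptprz1. Wide gaps lie inside Sox5 and Tnr, upstream of Ptprz1 and at the start of Sema5b (31.7 against 13.5 CPM).

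Of the other loci among the 10 highest, Cntn1 had 44.8 against 18.1 CPM (1.31), Stk32a, a kinase gene, 31.4 against 13.3 CPM (1.25, but -0.51 without OPC-like barcodes), and Wasf1, an actin regulator of the WAVE family, 29.7 against 12.9 CPM (1.20). Ror2, a receptor for Wnt5a, had 38.8 against 17.4 CPM (1.15), Shisal1 77.4 against 34.9 CPM (1.15) and Atrnl1 47.5 against 21.6 CPM (1.13). In Atrnl1 the gene end was close to even, at 38.9 against 34.2 CPM (0.19). By number of regions past 2-fold, Igsf21, a synaptic adhesion gene (9 of 17, sum 0.79), and Ntrk2, the gene of the BDNF receptor TrkB (7 of 18, 0.87), joined Sox5, Tnr and Sema5b.

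The receptors of the overexpressed ligand were not among the loci past 2-fold. Pdgfra had 82.9 against 50.2 CPM over 6 regions (0.72, interval 0.60 to 0.85), and 2 of the 6 carried the difference, one 12.2 kb into the gene with 318 against 75 counts (2.16) and one 196 kb from the 5′ end, beyond the gene, with 728 against 209 counts (1.87). The other 4 ranged from 0.08 to 0.39, and the gene end stood at 8.24 against 5.65 CPM (0.55). Pdgfrb, a receptor of mural cells, had 43.2 against 44.3 CPM (-0.03, interval -0.17 to 0.14). Olig2, the lineage factor of OPC and oligodendrocytes, had 70.7 against 57.0 CPM (0.31), its neighbor Olig1 127.9 against 142.9 CPM (-0.16), and Sox10 48.7 against 51.9 CPM (-0.09).

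Among the lowest loci, 1600014C10Rik had 73.0 against 162.4 CPM (-1.15, interval -1.27 to -1.06), carried by 3 regions inside the gene, the largest with 688 against 2826 counts. Within microglia or macrophage-like barcodes the locus had 116 against 321 CPM (-1.47, interval -1.61 to -1.34), and within oligodendrocyte-like ones 78.8 against 67.5 CPM (0.22, -0.04 to 0.47). Lrrc4c, a synaptic adhesion gene, had 269.5 against 594.7 CPM (-1.14), but its 5 lower regions crowd within chr2:98662250-98667353, 2345 to 2349 kb from the gene's 5′ end, at up to 93.4 against 211.6 CPM. On fragments the ratio was -0.97 (interval -1.02 to -0.91), and counting each peak once per barcode it was 0.15, so the direction depends on how repeated counts within a barcode are read. Counting once is not neutral here, as the median depth per barcode was 2767.5 counts in PDGFB-NLS and 13054 in Control. The part of depth in this change of sign was not tested. The 5 classes gave 37.2% of its Control counts and 83.6% of its PDGFB-NLS counts. With genes of all types considered, those regions go to another gene and Lrrc4c stood at 0.20. Its 5 regions inside the gene ranged from -0.22 to 2.42. As no list of artefact-prone regions was applied, whether the 5 lower regions are such was not tested.

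The next lowest loci lay within 2-fold. Tmeff1 had 26.6 against 50.4 CPM (-0.92) and Gm9733 24.0 against 43.9 CPM (-0.87). Macir (-0.81), the myeloid kinase gene Fgr (43.6 against 72.5 CPM, -0.73), and Tppp, which encodes a microtubule protein of oligodendrocytes (43.1 against 69.7 CPM, -0.69), followed, then Adap1 (-0.67), Dennd3 (-0.66) and Tcte2 (-0.65). The genes with most lower regions were Spock1, a testican proteoglycan gene (6 of 13), Lrrc4c (5 of 10), Magi1, a junction scaffold (5 of 21), and Ppfibp2 and the growth factor receptor gene Fgfr2 (4 of 13 and 4 of 19). Their gene ends were close to even at Magi1 (51.2 against 51.5 CPM) and Fgfr2 (15.01 against 14.3 CPM).

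**Figure D3:**
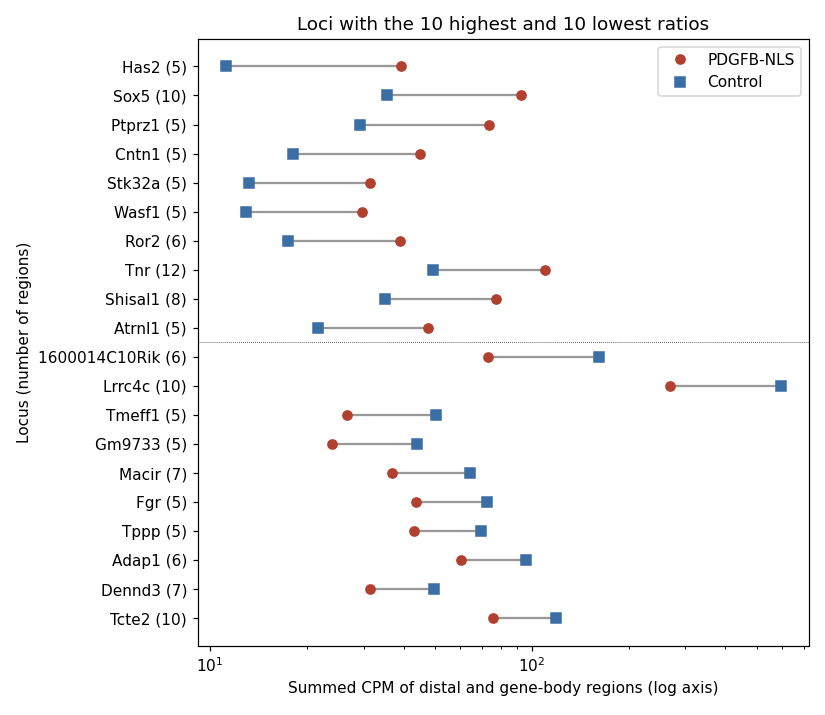
Summed CPM (log axis) of the distal and gene-body regions of the loci whose ratios were the 10 highest and the 10 lowest among those with at least 5 regions (number in brackets), in PDGFB-NLS (circles) and Control (squares). Control lies between 11.2 and 49.4 CPM at the 10 highest, and the line for Lrrc4c sits apart at 269.5 and 594.7 CPM.

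Gene lists chosen for glia, PDGF signaling and neighboring cell types were then described by their distal and gene-body regions, of which 6.16% over all genes were 2-fold or more higher and 1.83% lower, at a median log2 ratio of 0.02. The lists were chosen with earlier results of these data known. Matrix proteoglycans and tenascins, which build the perineuronal and precursor matrix, had the largest share of higher regions, 25 of 89 (28.1%) and 0 lower, with a median of 0.47 and 15 of 18 loci above 0. Within it the loci ran from Has2 (1.82) to the hyaluronan receptor gene Cd44 (45.7 against 48.0 CPM, -0.07). Has2, the highest of all loci summed above, gave 5 of the 25 higher regions. The OPC marker list had 21 of 111 regions higher (18.9%) and 1 lower, with a median of 0.37, and ran from Tnr (1.15) to Olig1 (-0.16). Tnr gave 7 of the 21 higher regions. As the OPC list itself holds matrix genes (Tnr, Bcan, Vcan and Cspg5), the matrix and OPC lists are not separate findings.

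Axon guidance and adhesion genes had 35 of 232 regions higher (15.1%) and 10 lower (4.31%), both above the background, and ran from Cntn1 (1.31) to the ephrin receptor gene Epha5 (1 region, 2.95 against 5.75 CPM, -0.96). Ionotropic glutamate and GABA receptor genes had 8 of 56 regions higher and 0 lower at a median of 0.33, from Grin2a (2 regions, 10.8 against 4.15 CPM, 1.37) to Grik2 (14.6 against 18.8 CPM, -0.37). HOX genes, which pattern the hindbrain and spinal cord, had few regions (19, with 5 higher), led by Hoxb1 (2 regions, 11.5 against 4.64 CPM, 1.31). Neural progenitor genes had 11 of 113 regions higher and 0 lower (median 0.21), from Sox11 to Prom1 (1 region, 3.43 against 6.59 CPM, -0.94). Patterning transcription factors had 8 of 160 higher (5%), below the background share, yet a median of 0.20 with 17 of 17 loci above 0, from Zic4 (13.9 against 5.39 CPM, 1.37) to Emx2 (19.7 against 19.5 CPM, 0.02).

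Other lists leaned the other way or not at all. Endothelial genes had 11 of 85 regions lower (12.9%) and 3 higher, at a median of -0.28, down to the receptor gene Tie1 (1 region, 2.85 against 4.80 CPM, -0.75). Oligodendrocyte genes had 2 of 63 lower and 0 higher (median -0.25), with the myelin gene Mog at 53.8 against 53.0 CPM (0.02). Microglia or macrophage genes had 7 of 125 higher (5.6%) and 1 lower (0.8%), at a median of -0.15. Both shares were below those of all distal and gene-body regions, 6.16% and 1.83%, so only the median leaned lower. The loci ran from C1qb (1 region, 4.29 against 2.09 CPM, 1.04, interval 0.50 to 1.77) to the integrin gene Itgam (35.4 against 48.0 CPM, -0.44). Of the PDGFB-NLS counts at that C1qb region, microglia or macrophage-like barcodes gave 8.0% and oligodendrocyte-like ones 49.6%. The C1qb gene end leaned the other way, at 25.4 against 32.4 CPM (-0.35, interval -0.54 to -0.15). Antigen presentation and interferon genes had 0 of 39 past 2-fold either way (median -0.17), with the class II chaperone gene Cd74 at 33.2 against 45.6 CPM (-0.46).

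PDGF receptors and ERK feedback genes, which PDGF signaling would act on, had 4 of 109 regions higher (3.67%) and 1 lower at a median of -0.09, from Pdgfra to the ligand gene Pdgfc (15.1 against 20.9 CPM, -0.47). Immediate early and AP-1 genes had 4 of 110 higher and 3 lower (median -0.12), with Egr1 at 29.3 against 38.4 CPM (-0.39) and Npas4 at 23.7 against 19.1 CPM (0.31). Cell cycle brakes and cyclin D genes had 3 of 86 higher and 1 lower (median -0.09), between Cdkn2a (9.21 against 6.63 CPM, 0.47) and Trp53 (9.75 against 14.6 CPM, -0.58), each with 1 region. Chromosome segregation genes, named for the series' title, had 3 of 70 higher and 1 lower (median 0.07), and all 3 lay at Nuf2, a kinetochore gene with 56.4 against 30.2 CPM (0.90), as distal regions 45.9 to 437.7 kb from its 5′ end, while its gene end was even (38.1 against 38.8 CPM). Ndc80, its partner in the kinetochore, had 17.9 against 22.2 CPM (-0.31).

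**Figure D4:**
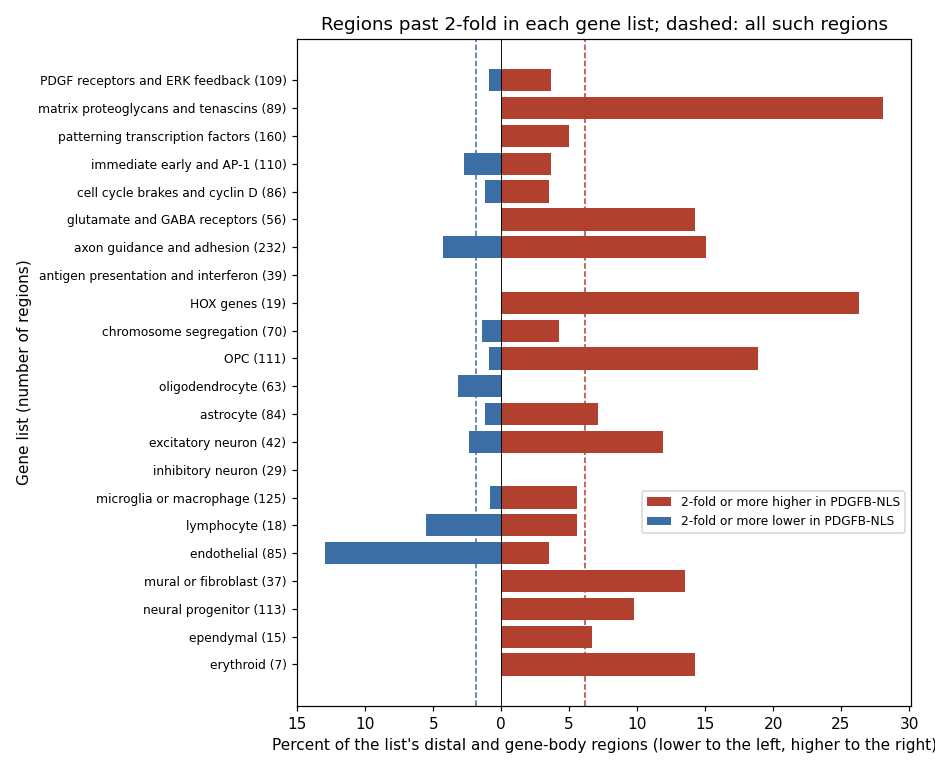
Percent of the distal and gene-body regions of each gene list (number of regions in brackets) that were 2-fold or more higher in PDGFB-NLS (to the right) or lower (to the left). Dashed lines give the same over all distal and gene-body regions, 6.16% and 1.83%. Bars past the right line include those of matrix (28.1%), HOX (26.3%), OPC (18.9%) and axon guidance (15.1%) genes and of mural (13.5%), excitatory neuron (11.9%) and neural progenitor (9.73%) genes. Past the left line are endothelial (12.9%), lymphocyte (5.56%), axon guidance (4.31%), oligodendrocyte (3.17%), immediate early (2.73%) and excitatory neuron (2.38%) genes, and lists with few regions such as erythroid (7) give coarse percentages.

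Of the other marker lists, astrocyte genes had 6 of 84 regions higher and 1 lower (median 0.22), excitatory neuron genes 5 of 42 and 1 (0.22), inhibitory neuron genes 0 of 29 either way (0.22), and mural or fibroblast genes 5 of 37 and 0 (0.23). Lymphocyte genes had 18 regions with 1 higher and 1 lower, ependymal genes 15 with 1 higher, and erythroid genes 7 with 1 higher. In all, 15 of the 22 lists had a median above that of all distal and gene-body regions. Summed over all regions of a list, gene ends included, OPC markers stood at 1547 against 1230 CPM, with 17 of 17 genes holding a region, and oligodendrocyte markers at 855.6 against 979.8 CPM (16 of 16). Microglia or macrophage markers stood at 1339 against 1468 CPM (18 of 18) and endothelial markers at 801.5 against 945.1 CPM (15 of 16), and 7 of 12 erythroid markers, among them the hemoglobin genes, and 9 of 17 lymphocyte markers had no compared region. The classes were named by these same markers, so list and share are not independent. For the 5 classes used here, the marker list leaned the way the class's share of counts did. By share of barcodes this did not hold for oligodendrocyte-like and microglia or macrophage-like barcodes, whose shares were higher in PDGFB-NLS. 

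Within the same class of barcodes the highest loci behaved differently from the sum. In OPC-like barcodes Has2 had 122.1 CPM in PDGFB-NLS and 120.2 in Control (log2 ratio 0.02, interval -0.43 to 0.51), Cntn1 114.3 against 112.0 CPM (0.03, -0.45 to 0.53), Tnr 260.7 against 285.5 CPM (-0.13, -0.43 to 0.18) and Pdgfra 214.9 against 219.9 CPM (-0.03, -0.33 to 0.36). None of the 10 highest loci had an interval clear of 0 in OPC-like barcodes, where ratios ran from -0.13 to 0.40. The Control side of this rests on 57 barcodes, and intervals reach to 2-fold at Stk32a, so equal levels are not shown.

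In oligodendrocyte-like barcodes 10 of those 10 loci were higher with an interval clear of 0, from 0.56 to 2.32. The 10 loci were chosen on sums over all barcodes, these included. A lean to higher within a class is thus partly set by that choice. Has2 had 74.4 against 19.6 CPM there (1.92, interval 1.502 to 2.263), Sox5 159.0 against 42.8 CPM (1.89, 1.64 to 2.15), Shisal1 86.9 against 17.5 CPM (2.32, 1.92 to 2.71), Sox11 60.3 against 11.97 CPM (2.33, 1.86 to 2.81) and Igsf21 102.5 against 21.0 CPM (2.29, 1.89 to 2.60). In the same barcodes Olig1 had 251.9 against 432.0 CPM (-0.78, -0.89 to -0.64), Fgfr2 334.9 against 495.8 CPM (-0.57) and Spock1 100.1 against 223.8 CPM (-1.16). Sox5 and Sox11 encode transcription factors of precursor cells. In astrocyte-like barcodes the 10 loci ran from -0.25 to 0.68, with 5 intervals above 0, the highest being Tnr (134.4 against 84.1 CPM).

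Outside these classes the same loci varied. Of the 10 highest loci, chosen on sums that hold these barcodes too, 9 had an interval above 0 in microglia or macrophage-like barcodes and 6 in endothelial-like ones. In microglia or macrophage-like barcodes Tnr had 115 counts in PDGFB-NLS and 8 in Control (11.9 against 0.735 CPM), Ptprz1 109 against 6 (11.3 against 0.552 CPM), Sox5 100 against 12 (10.4 against 1.10 CPM) and Olig1 219 against 76 (22.7 against 6.99 CPM). In the same barcodes Shisal1 had 41.2 against 40.3 CPM (0.03, interval -0.25 to 0.31) and Pdgfra 539 against 543 counts (0.16, -0.08 to 0.40). In endothelial-like barcodes Tnr had 42 against 14 counts (2.11, interval 0.88 to 3.63), while Has2 had 3 against 8 (-0.89, -4.42 to 1.41). Of mural or fibroblast marker loci in that class, Pdgfrb had 37.7 against 7.81 CPM (2.27, interval 1.39 to 3.32). Tbx18 stood at 2.01 (0.38 to 3.49) and Dcn at -0.03 (-0.53 to 0.55). Such a rise was not particular to mural loci, as 6 of the 10 highest loci also had intervals above 0 in that class. Of the 10 lowest loci, 1 had an interval above 0 there and 6 below. Whether the class holds mural cells in PDGFB-NLS was not tested. The levels of Tnr and Olig1 in microglia or macrophage-like barcodes are far below the OPC-like ones in PDGFB-NLS, 260.7 CPM at Tnr and 252.6 CPM at Olig1. Summed over the 3189 higher regions, which were chosen on these same counts, the log2 ratio was 0.18 in OPC-like, 0.72 in astrocyte-like, 1.47 in oligodendrocyte-like, 1.45 in microglia or macrophage-like and 1.37 in endothelial-like barcodes. The higher regions held 0.601% of the microglia or macrophage-like counts in PDGFB-NLS and 0.219% in Control, against 6.19% and 5.48% of the OPC-like counts. How far barcodes of 1 class carry fragments of another was not tested. The 907 lower regions had summed ratios of -0.87 to -1.22 in the 5 classes. Such sums weigh regions by their level. Over all barcodes 1 lower distal region had a log2 geometric mean CPM of at least 11, against a median of 6.92 CPM in Control over the 907. The sums thus do not show that most of the 907 were lower in every class.

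**Figure D5:**
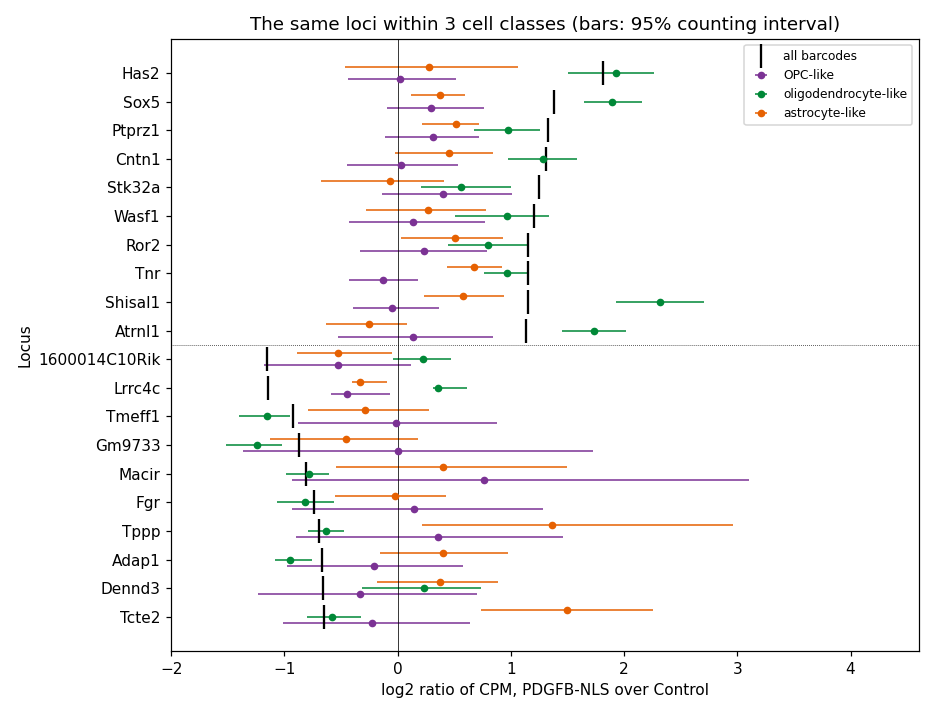
Log2 ratio of CPM, PDGFB-NLS over Control, of the 10 highest and 10 lowest loci, computed within OPC-like, oligodendrocyte-like and astrocyte-like barcodes (points; bars are exact 95% intervals on fragments, counting error only) and over all barcodes (vertical ticks). At the 10 highest loci the OPC-like points lie between -0.13 and 0.40 and the oligodendrocyte-like ones between 0.56 and 2.32.

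A pair of recalculations chosen after seeing the data bear on the same point. Leaving out the OPC-like barcodes of both libraries lowered the number of higher regions from 3189 (5.23% of 60926) to 1415 (2.51% of 56447). Of the 1415, 1221 were among the 3189. The lower ones changed from 907 (1.49%) to 642 (1.14%). Giving the 5 classes the same shares in both libraries gave 1498 higher and 458 lower regions and left 0 loci 2-fold higher. Under those equal shares Has2 stood at 0.89, Sox5 at 0.97, Ptprz1 at 0.69, Tnr at 0.60 and Pdgfra at 0.20, all still above 0, while Olig2 moved from 0.31 to -0.25. The median of the matrix list moved from 0.47 to 0.24, of OPC markers from 0.37 to 0.06 and of endothelial markers from -0.28 to -0.07. Of the 3189 regions, 1216 stayed past 2-fold with the class shares held equal. That recalculation used only barcodes of the 5 classes, which were clustered in each library alone, and it set their shares and not their content. The median log2 fold of oligodendrocyte markers in the oligodendrocyte-like cluster was 2.45 in PDGFB-NLS and 3.52 in Control. What would remain at an equal mix of cells thus cannot be read from it.

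Ratios were alike across chromosomes. Chromosome medians of the log2 ratio lay between -0.02 and 0.03 on the 19 autosomes, at -0.05 on X and at 0.07 over 12 regions on Y. Over 250 bins of 10 Mb with at least 50 regions, medians ran from -0.15 to 0.27, and 247 lay within 0.2 of 0. The summed ratio of chromosome 17 was -0.10, apart from its median of -0.0026.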

How the data were processed

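The libraries were single-cell ATAC-seq of nuclei from mouse gliomas with the 10x Chromium v2 chemistry, as the labels' protocols state. The deposited matrices hold raw counts of cut sites per peak and barcode, made by cellranger-atac 2.1.0 per the file headers, while Cell Ranger 8 and the build mm10 are named in the submitters' processing notes. The deposited peak lists were called per library. Settings of the peak caller: not given in the sources used here.

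All barcodes from 200 counts up (10996 of 10996 and 2226 of 2267) and chromosomes 1 to 19, X and Y were used, and overlapping peaks were merged. CPM is the count scaled to 1000000 within shared regions. Each pair of cut sites of a barcode in a peak, or a single one left over, was taken as a fragment for the minimum of 100 and for the exact 95% intervals (Clopper-Pearson on the conditional binomial, scipy 1.17.1). Intervals on fragments need not be centred on a ratio of counts. Gene positions and promoters came from RefSeq tables of GRCm38.p6 with 21883 protein-coding genes. No list of artefact-prone regions was applied and doublets were not called.

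Barcodes were clustered in each library alone (components 2 to 30, 15 neighbours, Leiden resolution 0.6) and named by marker loci, with a minimum median log2 fold of 1 set after seeing the data. Named regions were the 8 highest and 8 lowest distal and gene-body ones and the 4 highest and 4 lowest gene ends. Named loci were the 10 highest and 10 lowest, the 5 with most regions past 2-fold each way, the highest and lowest of each list, and Pdgfra, Pdgfrb, Olig2 and Sox10. Some items that these rules name are not reported here. A few further values, such as single regions of named loci, were picked after their values were seen. The members and lists were chosen with earlier results of these data known. Alternatives changed the unit, scale, barcode weight, fragment minimum, peak overlap, gene-end window, gene types and fold, and a pair chosen after seeing the data left out OPC-like barcodes or gave the classes equal shares. The ratio and interval code was tested on simulated data.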

Additional observations from a re-analysis of the deposited data

How the results depend on the processing

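No paired analysis was possible because there was 1 library a side, and leaving out a library leaves no comparison. The direction of the whole, more regions higher than lower, held under all 17 alternatives that recount regions. Counts are given as higher and lower, and counts of loci cover those with at least 5 regions. Without a minimum of fragments there were 5465 and 1901 regions (115 lower at gene ends, 2763 and 921 in gene bodies, 2191 and 865 distal) and 28 loci 2-fold higher. At a minimum of 300 fragments there were 240 and 112 (40 and 18, 111 and 49, 89 and 45) and 0 and 1 loci, and at 50 in each library 1170 and 391 (166 and 43, 591 and 182, 413 and 166) and 3 higher loci. These minimums change which regions enter. Equal weight for each barcode gave 1891 lower (198, 919 and 774 by class) and 5 lower loci, and moved the share of higher among regions past 2-fold from 77.9% to 66.5%. Counts capped at 1 gave 247 higher gene ends, 0 lower loci and a share of 65.8%, fragments gave 1 lower locus, and the cause was not tested. Regions also called in PDGFB-WT left 267 lower (19, 122 and 126), 1 lower locus and a share of 89.3%. A fold of 1.5 gave 7970 and 4408 (1143 and 430, 4062 and 2357, 2765 and 1621). Using genes of all types gave 6 and 1 loci. Without OPC-like barcodes 1415 regions were higher (148, 724 and 543) with 3 loci, and with equal class shares 1498 and 458 (166 and 35, 802 and 240, 530 and 183) with 0 and 1 loci. Of the 71 named loci, 17 had ratios on both sides of 0 over the alternatives, and 14 of these lay within 2-fold to begin with, such as Olig2 (0.31, lowest -0.25) and Olig1 (-0.16, highest 0.24). The 3 past 2-fold were Lrrc4c (0.1542 capped, 0.1995 with all genes), Tbx18 (-0.3177 at equal weight) and Stk32a (-0.2464 at 50 in each library, -0.5064 without OPC-like barcodes). Under 34 fragments in 1 library were found in 955 compared regions (2.22% of distal, 1.75% of gene-body and 0.456% of gene-end ones), of which 765 counted as higher and 186 as lower.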

Other observations

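Peaks on unplaced or random scaffolds were not part of the comparison. They numbered 33 in PDGFB-NLS and 40 in Control and held 764.9 and 1028 counts per 1000000 of the library, or 866.4 and 946.2 counts per kb of peak over 27.5 and 34.3 kb.

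Clusters outside the 5 classes were not compared. Control had a mural or fibroblast-like cluster of 127 barcodes and a lymphocyte-like cluster of 49. Inhibitory neuron-like clusters held 289 barcodes in PDGFB-NLS and 29 in Control, and 1 cluster in each library (159 and 126 barcodes) took no name.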
